A study of Mus musculus with 6 samples.

Results

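Cortical layer identity genes encode transcription factors and co-repressors that mark, and in part specify, the projection neurons of the upper and deep layers of the cerebral cortex. The 9 genes described here were taken from a fixed list of such markers and matched by their GENCODE M21 symbols to the identifiers of the count files. They are 9 of 54532 gene identifiers, and all 9 passed the filter on low counts that left 16731 genes for testing. The libraries were made from polyA RNA of the whole brain of C57BL/6J mice aged 14 days, 3 of them controls and 3 Mphosph8 mutants. The controls were Mphosph8fl/+ Nestin-Cre+ and the mutants (labelled Mphosph8∆n) Mphosph8fl/fl Nestin-Cre+, so both groups carried the Cre transgene and the controls had 1 floxed allele. By these labels the controls were heterozygous in recombined cells, so the comparison was not with intact Mphosph8. Nestin-Cre recombines floxed alleles in neural progenitors and their progeny. Recombination in cells of other origins, such as vessels and microglia, was not measured here. The RNA came from the whole brain, so no value below was measured in cortex alone.

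The cortex is built from the inside outwards, and each wave of neurons settles above the one before it. Neurons of the deep layers project below the cortex, and those of the upper layers connect cortical areas with each other. A small set of mutually repressing factors, among them FEZF2, BCL11B and TBR1 in the deep layers, holds these identities apart. Several of the genes are also used elsewhere in the brain: Bcl11b in striatal projection neurons, Foxp2 in striatum, thalamus and Purkinje cells, Tbr1 in mitral cells of the olfactory bulb and Rorb in thalamus and midbrain. In bulk RNA, fewer cells of a type and less RNA per cell cannot be told apart.

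To see whether the layer genes differed between the mutants and these heterozygous controls, the libraries were compared gene by gene. No layer gene was called in either direction. The quasi-likelihood test of edgeR put 0 of 9 past an adjusted p of 0.05, and DESeq2 and limma-voom also put 0 there. At an unadjusted p under 0.05 edgeR likewise counted 0 of 9, where 6.51% of all tested genes lay. Over all 16731 genes tested the adjusted threshold called 105, which is 0.628%, with 89 higher (0.532%) and 16 lower (0.0956%) in the mutants. A count of 0 among 9 lies near these shares. With the study's added limit of a 2-fold change these shares were 0.359% in all, 0.353% higher and 0.00598% lower, and again 0 of 9 layer genes were among them. The log2 fold changes of the layer genes (mutant minus control) ran from -0.07 for Tbr1 to 0.19 for Foxp2, and the 95% interval of each of the 9 included 0. The widest limits of these intervals were a fold of 0.79, for Fezf2, and of 1.34, for Foxp2. The intervals hold for 1 gene at a time and are not adjusted for the number of genes.

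Mphosph8 itself, as a check of the labels, lay between 48.6 and 70.7 counts per 1000000 of the effective library size (CPM) in control and between 26.5 and 33.1 CPM in mutant libraries. The fitted log2 difference was -1.02 ± 0.12 (SE; edgeR adjusted p 0.000157). The libraries held from 12956880 to 15223424 counts. Control replicate 3 had 1338 counts of the Y-linked gene Ddx3y, against 0 in each of the other 5 libraries. It had 27 counts of Xist, a gene expressed in females, against 11130 to 17697 in the others. The labels used here give no sex, but these counts mark control replicate 3 as male and the other libraries as female. Sex was not a term in the fit, and a fit without control replicate 3 also leaves out the only male.

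**Figure D1:**
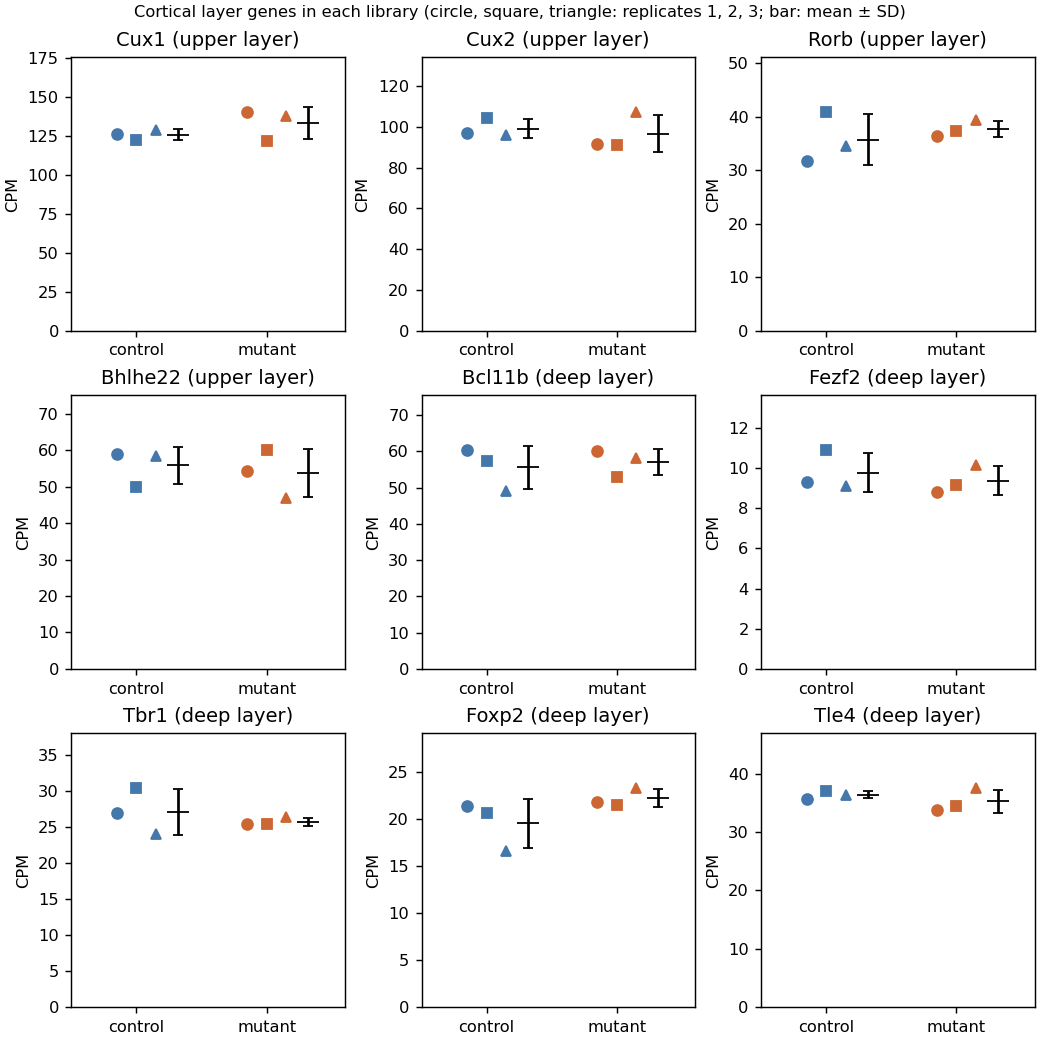
CPM (vertical axis, from 0) of each of the 9 layer genes in the 3 control and 3 mutant libraries; symbols mark the replicates and the bar gives the mean ± SD. Control and mutant points overlap in 8 of the 9 panels, and in the Foxp2 panel the lowest mutant library, at 21.6 CPM, lies just above the highest control library, at 21.4 CPM.

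The upper layer genes were examined first. Cux1 (ENSMUSG00000029705, chromosome 5, 136248135 to 136567490, GRCm38, minus strand) encodes a homeodomain protein that promotes dendrite branching in upper layer neurons, and the same gene also gives rise to the Golgi protein CASP, whose reads are part of the count. Its level was 126, 122 and 129 CPM in the control libraries and 140.4, 121 and 138 CPM in the mutant libraries. Mutant replicate 2 lay below all control libraries and the other two mutant libraries lay above them, so the groups overlapped. The log2 fold change came to 0.08 ± 0.08 (SE), with a 95% interval from -0.09 to 0.25 and an edgeR adjusted p of 0.945.

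Cux2 (ENSMUSG00000042589, chromosome 5, 121856366 to 122050102, minus strand) is its paralog and the more restricted upper layer marker. It was at 96.9, 104 and 95.8 CPM in control and at 91.6, 91.0 and 107 CPM in mutant libraries. The mutant libraries held both the highest value and the 2 lowest ones. The difference was -0.03 ± 0.08 on the log2 scale, with an interval from -0.21 to 0.14 (edgeR adjusted p 0.985).

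Rorb (ENSMUSG00000036192, chromosome 19, 18930605 to 19111196, minus strand) encodes a nuclear receptor that marks the thalamus-recipient layer between the upper and deep layers, and it is counted here with the upper layer genes. It was at 31.7, 40.9 and 34.6 CPM in control and at 36.5, 37.3 and 39.5 CPM in mutant libraries. All mutant values lay within the range of the control values. The difference was 0.08 ± 0.10 on the log2 scale, with an interval from -0.13 to 0.29 (edgeR adjusted p 0.96). It went to 0.19 without control replicate 2 and to 0.00 without control replicate 1, with adjusted p of 0.998 and 1.0.

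Bhlhe22 (ENSMUSG00000025128, chromosome 3, 18054174 to 18057517, plus strand) encodes a basic helix-loop-helix repressor of postmitotic cortical neurons that acts with PRDM8. It is the 1 layer gene annotated with a single exon. It was at 59.1, 50.02 and 58.6 CPM in control and at 54.3, 60.2 and 47.0 CPM in mutant libraries. The mutant libraries included both the highest and the lowest value of the 6. The difference was -0.06 ± 0.10 on the log2 scale, with an interval from -0.26 to 0.15 (edgeR adjusted p 0.979), which corresponds to a fold between 0.83 and 1.11.

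Among the deep layer genes, Fezf2 (ENSMUSG00000021743, chromosome 14, 12342094 to 12348189, minus strand) is the selector of subcerebral projection neurons of layer V. It had the fewest reads of the 9 genes, from 110 to 149 counts in a library, so that counting error alone came to 9.53% in the library with the fewest. It was at 9.31, 10.9 and 9.11 CPM in control and at 8.80, 9.18 and 10.2 CPM in mutant libraries, and the groups overlapped. The difference was -0.06 ± 0.14 on the log2 scale, with an interval from -0.34 to 0.23 (edgeR adjusted p 0.985).

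Bcl11b (ENSMUSG00000048251, chromosome 12, 107910403 to 108003602, minus strand) encodes CTIP2, a zinc-finger factor that acts downstream of FEZF2 in axon outgrowth to the spinal cord. It was at 60.4, 57.2 and 49.1 CPM in control and at 60.0, 52.9 and 58.1 CPM in mutant libraries. All mutant values lay within the control range, whose lowest point was control replicate 3. The difference was 0.04 ± 0.09 on the log2 scale, with an interval from -0.16 to 0.23 (edgeR adjusted p 0.985).

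Tbr1 (ENSMUSG00000035033, chromosome 2, 61802930 to 61814114, plus strand) encodes a T-box factor of layer VI neurons that represses Fezf2. It was at 26.9, 30.4 and 24.0 CPM in control and at 25.3, 25.5 and 26.3 CPM in mutant libraries. The 3 mutant values lay close together within the control range. The difference was -0.07 ± 0.10 on the log2 scale, with an interval from -0.29 to 0.14 (edgeR adjusted p 0.967). Without control replicate 3 it was -0.15, with an adjusted p of 0.924.

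Tle4 (ENSMUSG00000024642, chromosome 19, 14448150 to 14598051, minus strand) encodes a Groucho-type co-repressor used as a marker of corticothalamic neurons. It was at 35.8, 37.1 and 36.4 CPM in control and at 33.7, 34.5 and 37.6 CPM in mutant libraries. Mutant replicates 1 and 2 lay below all control libraries and mutant replicate 3 above them. The difference was -0.05 ± 0.09 on the log2 scale, with an interval from -0.23 to 0.14 (edgeR adjusted p 0.984).

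Foxp2 (ENSMUSG00000029563, chromosome 6, 14901349 to 15441977, plus strand), a forkhead factor of layer VI and of several subcortical neurons, had the largest difference of the 9. It was at 21.4, 20.7 and 16.6 CPM in control and at 21.8, 21.6 and 23.3 CPM in mutant libraries. Every mutant library was above every control library and control replicate 3 stood below the rest. The control mean was 19.6 ± 2.58 CPM and the mutant mean 22.2 ± 0.954 CPM (SD, n = 3). On the log2 scale the difference was 0.19 ± 0.11 (SE), with an interval from -0.05 to 0.42, and the gene was not past the threshold (edgeR p 0.113, adjusted p 0.879). Without control replicate 3 it was 0.08, with an adjusted p of 0.971, and without control replicate 1 it was 0.26, with an adjusted p of 0.848 and an unadjusted p under 0.05. Foxp2 was thus the 1 of 9 layer genes whose libraries did not overlap (11.1%), where 11.6% of all tested genes had no overlap, 6.23% with every mutant library above every control library and 5.42% with every one below. Of all tested genes, 2151 (12.9%) had a smaller edgeR p than Foxp2, and 22.8% had a larger log2 fold change in either direction.

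**Figure D2:**
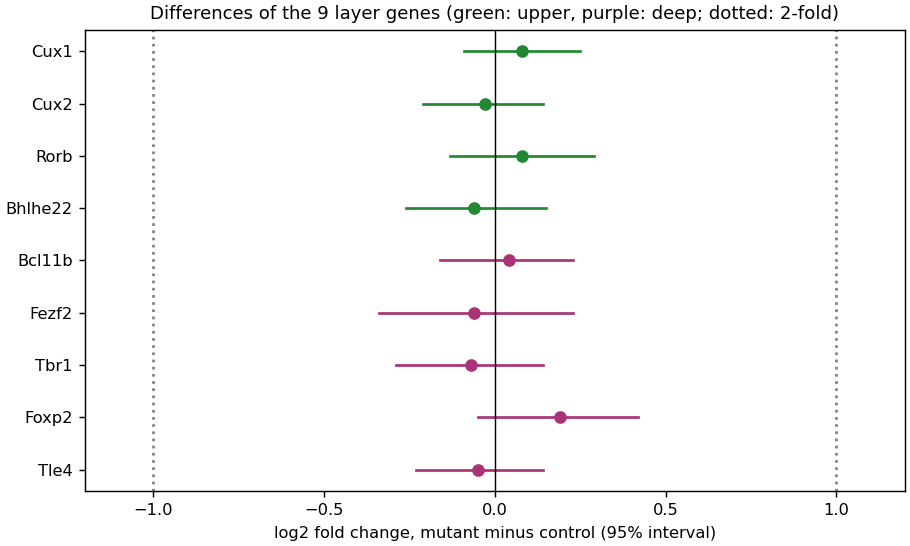
Log2 fold change (mutant minus control) of the 9 layer genes with the 95% interval from the edgeR fit; green marks upper and purple deep layer genes, and the dotted lines mark a 2-fold change. All 9 intervals include 0, and they end between -0.34 and 0.42.

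Taken as groups, the 4 upper layer genes had a median log2 fold change of 0.02 and the 5 deep layer genes of -0.05, beside a median of -0.007 over all genes tested. For the 9 together the median was -0.03, with 4 positive and 5 negative values. The median size of the change, without its sign, was 0.06 for the layer genes and 0.09 for all tested genes. These medians are descriptions, since the genes share neurons and are not replicates of each other. The balance of upper against deep layer genes was also set out per library, as the mean log2 CPM of the upper genes less that of the deep genes. This balance is not scaled by gene length, so it compares libraries and does not rank upper genes above deep ones. It was 1.41, 1.40 and 1.61 in the control and 1.5, 1.51 and 1.43 in the mutant libraries. All 3 mutant values lay within the control range, and the means were 1.47 ± 0.12 and 1.48 ± 0.04 (SD, n = 3).

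The layer genes were set among the tested genes that share their span of mean levels. Of the 9205 tested genes whose mean level lay between those of Fezf2 and Cux1, 48 passed the test (0.521%). The smallest log2 fold change among these 48 was 0.38 in size, for Jam3, an adhesion gene named here after its value was seen. Foxp2 is the layer gene whose interval reached beyond that size. The 48 genes were selected by passing the test, so 0.38 is not a limit of what could be resolved for a layer gene. Within a group, the SD of log2 CPM of the layer genes ran from 0.06 to 0.16 with a median of 0.12, beside a median of 0.14 over all tested genes.

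**Figure D3:**
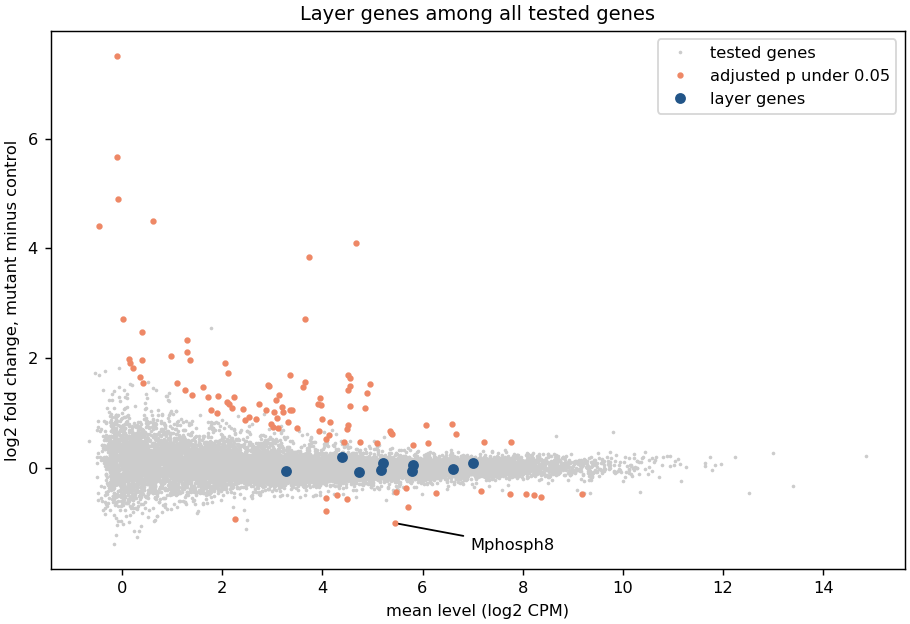
Log2 fold change (vertical axis, mutant minus control) against mean level (horizontal axis, log2 CPM) for the 16731 tested genes. The 105 genes with an adjusted p under 0.05 are orange, and the 9 layer genes, in blue, lie in the grey band near 0 while Mphosph8 lies at -1.02.

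Single genes were ranked by level only per length, as CPM per kilobase of all exonic bases of the gene (RPKM). In control brains Bhlhe22 was highest, at 16.7 ± 1.53 RPKM (SD, n = 3), followed by Cux2 at 9.82 ± 0.458 and Bcl11b at 6.85 ± 0.719 RPKM. Tle4 at 6.39 ± 0.113, Cux1 at 6.28 ± 0.165 and Tbr1 at 4.94 ± 0.587 RPKM came next. Rorb at 3.23 ± 0.426, Fezf2 at 3.21 ± 0.324 and Foxp2 at 1.196 ± 0.158 RPKM were lowest. Neighbours in this order were separated in all 6 libraries except for Bcl11b and Tle4, Tle4 and Cux1, and Rorb and Fezf2, whose ranges over the libraries overlapped. The order changed with the length used. Per kilobase of the longest coding transcript, a length chosen after seeing the data, Cux1 stood at 9.78 and Foxp2 at 2.89 RPKM in control brains, and Cux1 then ranked above Tle4 and Bcl11b in all 6 libraries. By their means Tle4 also ranked above Bcl11b and Fezf2 above Rorb, but the library ranges of both pairs overlapped on this length. So did those of Cux2 and Cux1, of Bcl11b and Tbr1, and of Rorb and Foxp2.

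The counts of the layer genes were little exposed to reads of other genes. The share of their 50-base words that also occur in transcripts of another gene, on either strand, was 0% for Bhlhe22 and Fezf2 and at most 0.368% for the others except Cux1, where it was 1.97%. The gene that shared most words with Cux1 was Gm16599, and 394 of its exonic bases lie opposite an exon on the other strand. For Tle4 the gene sharing most words was its paralog Tle1.

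The libraries were then compared over the 9 genes together. The mean deviation of log2 CPM from each gene's mean over the 6 libraries was 0.00, 0.06 and -0.08 in control replicates 1 to 3 and -0.01, -0.02 and 0.05 in the mutants. Control replicate 3 was the lowest library for 3 of the 9 genes and the highest for 0, and control replicate 2 and mutant replicate 3 were each the highest for 3. Most of the spread came from the deep layer genes, whose mean deviation reached -0.14 in control replicate 3, where the upper layer genes stood at 0.00. Summed over the 9 genes, the level was 453 to 474 CPM in control and 454 to 487 CPM in mutant libraries. Cux1 and Cux2 weighed most in this sum, with control means of 126 and 99.0 CPM, against 9.78 CPM for Fezf2.

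Markers of cortical excitatory neurons in general, such as the vesicular glutamate transporter Slc17a7 and the pallial factor Emx1, deviated by 0.06, 0.05 and -0.08 in the control and by -0.02, -0.03 and 0.03 in the mutant libraries. Control replicate 3 was thus lowest for both lists, which share Tbr1, but this was not particular to them. It was also lowest for projection neuron regulators (-0.07), striatal neurons (-0.05), hippocampal neurons (-0.05), astrocytes (-0.12) and microglia (-0.10). Each of the remaining lists had its lowest value in another library. Of the 16 genes on the list of cortical excitatory neurons 0 passed the edgeR test and 0 had an unadjusted p under 0.05. Their median log2 fold change was -0.04, from -0.12 for Neurod1 to 0.19 for the kinase gene Camk2a.

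**Figure D4:**
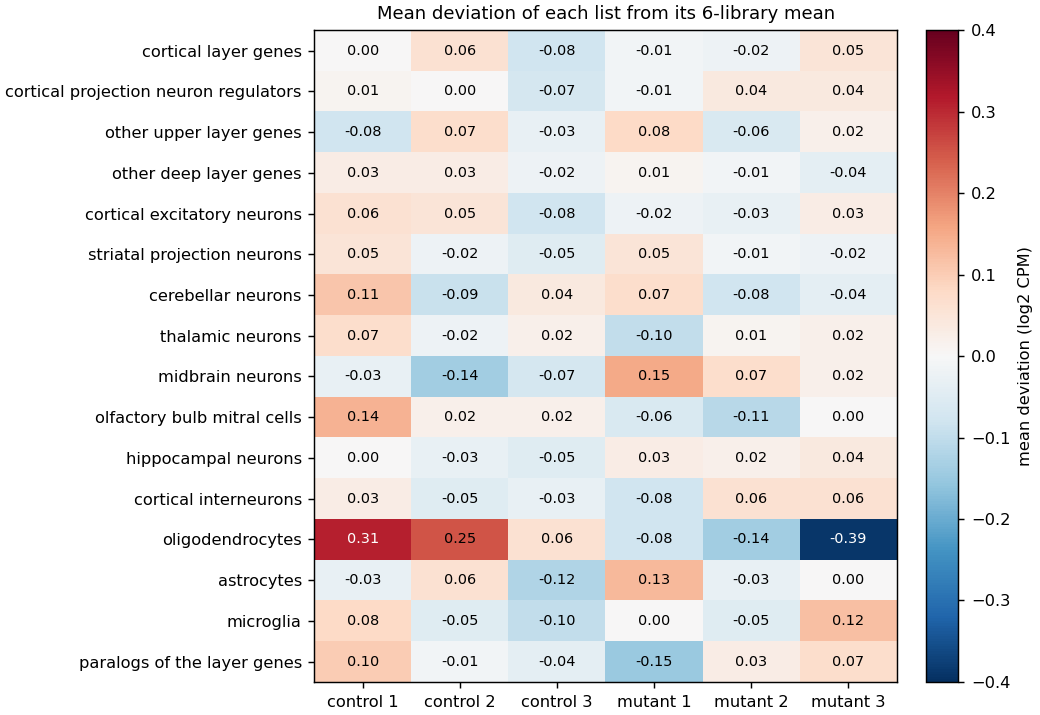
Mean deviation of log2 CPM from the 6-library mean (colour and printed value) for each gene list (vertical axis) in each library (horizontal axis). The layer genes stay between -0.08 and 0.06, whereas the oligodendrocyte genes run from 0.31 in control replicate 1 to -0.39 in mutant replicate 3.

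Genes that act with the layer genes were examined from lists chosen with earlier results of these data known. Of 22 regulators of cortical projection neurons, 0 passed the edgeR test, 3 had an unadjusted p under 0.05 and the median log2 fold change was 0.07. The lowest was Prdm8, the partner of BHLHE22, at 38.0, 31.9 and 37.1 CPM in control and 27.0, 29.4 and 29.6 CPM in mutant libraries. Its log2 fold change was -0.32 ± 0.10 (SE), not past the threshold (edgeR adjusted p 0.278). The highest was Nr2f1, which patterns cortical areas, at 0.23 ± 0.08 (edgeR adjusted p 0.347). Among 14 tested paralogs of the layer genes 0 passed, 2 had an unadjusted p under 0.05 and the median was 0.03. They ran from Tle6 at -0.48 ± 0.35 to Foxp1, the paralog of Foxp2, at 0.26 ± 0.09 (edgeR adjusted p 0.912 and 0.367). The libraries of Prdm8 did not overlap, with every mutant value below every control value, as in 5.42% of all tested genes. Those of Nr2f1 and Foxp1 did not overlap in the opposite direction, as in 6.23% of all tested genes.

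Further markers of the layers were also read from the fit. Of 18 other upper layer genes 0 passed the edgeR test and 2 had an unadjusted p under 0.05, with a median log2 fold change of 0.00, from Lamp5 at -0.20 to the potassium channel gene Kcnh5 at 0.48 ± 0.22 (edgeR adjusted p 0.734). Of 20 other deep layer genes 0 passed and 3 had an unadjusted p under 0.05, with a median of -0.01, from Nxph4 at -0.32 ± 0.16 to the opioid receptor gene Oprk1 at 0.30 ± 0.13 (edgeR adjusted p 0.804 and 0.692). The smallest p of the deep layer list belonged to Tshz2, at 0.26 (edgeR adjusted p 0.347).

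Neurons of other regions that also use layer genes were measured in the same fit. For striatal projection neurons, which express Bcl11b and Foxp2, 0 of 13 genes passed the edgeR test and 1 had an unadjusted p under 0.05. Their median was 0.03, from the dopamine receptor gene Drd1 at -0.26 to Six3 at 0.18. For cerebellar neurons, 0 of 13 passed and 0 had an unadjusted p under 0.05, the median was -0.03 and the values ran from Barhl2 at -0.21 to Cbln3 at 0.15. For thalamic neurons, 0 of 10 passed and 0 had such a p, the median was -0.05 and the values ran from Gbx2 at -0.25 to Foxp2 itself. For mitral cells of the olfactory bulb, a list of 6 genes that holds Tbr1, 0 passed and 1 had such a p, the median was -0.13 and the values ran from Eomes at -0.30 to Lhx5 at 0.06. For hippocampal neurons, 0 of 11 passed and 0 had such a p, the median was 0.08 and the values ran from Dsp at -0.26 to Lct at 0.35.

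The midbrain, a region that the study examined in these mutants, was covered by a further list. Of 13 tested midbrain genes 0 passed the edgeR test. At an unadjusted p under 0.05 lay 3, against 6.51% of all tested genes. These were Pax7, Pou4f2 and Tfap2b, all higher in the mutants. The list was chosen with earlier results of these data known, and its genes are not replicates of each other. Of the 13 genes 7 had a positive and 6 a negative log2 fold change. The median was 0.08, from En1 at -0.19 to Pou4f2, a factor of tectal neurons, at 1.09 ± 0.42 (edgeR adjusted p 0.551). Pax7 was at 0.79 ± 0.29 and Tfap2b at 0.27 ± 0.12 (edgeR adjusted p 0.483 and 0.733). Pou4f2 was low, at 0.199, 0.732 and 0.810 CPM in control and 1.52, 1.12 and 1.09 CPM in mutant libraries. For cortical interneurons, 0 of 14 passed and 2 had an unadjusted p under 0.05, the median was -0.01 and the values ran from Dlx5 at -0.32 to Lhx6 at 0.29.

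Of the glial lists, that of oligodendrocytes differed. Of its 8 genes 3 fell, namely Mal, Cldn11 and Mog, all of which encode myelin or tight junction proteins, and the median of the list was -0.47. All 8 genes had a negative log2 fold change and an unadjusted p under 0.05, where 6.51% of all tested genes had such a p. These genes share a cell type and are not replicates of each other. Their list was chosen with earlier results of these data known, and no test was made over it. Mal was at 426, 401 and 336 CPM in control and 284, 294 and 226 CPM in mutant libraries, which gave -0.53 ± 0.11 (SE) on the log2 scale (edgeR adjusted p 0.0241). Cldn11 was at -0.49 ± 0.11 and Mog at -0.49 ± 0.10, with edgeR adjusted p of 0.0496 and 0.0351. The list ended with Cnp at -0.24, and its summed level was 21889 to 26217 CPM in control and 17339 to 20113 CPM in mutant libraries. Left out singly, mutant replicate 3 and the first and second control replicates each took the number passed to 0, and Mal alone passed when control replicate 3 or mutant replicate 2 was left out. Without mutant replicate 1 the number was 5, and DESeq2 on all libraries called 6. Of 8 astrocyte genes 0 passed and 1 had an unadjusted p under 0.05, with a median of 0.07, from Gfap at -0.24 to Aldh1l1 at 0.26, and of 8 microglia genes 0 passed and 0 had such a p, with a median of 0.04, from Aif1 at -0.14 to Csf1r at 0.15.

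**Figure D5:**
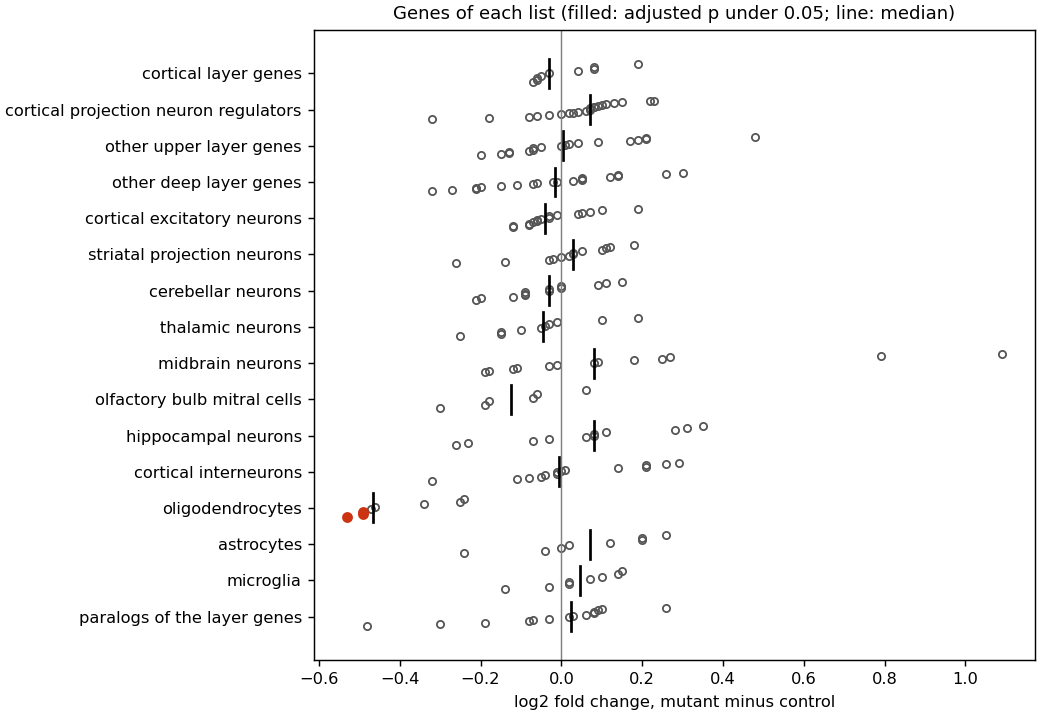
Log2 fold change (horizontal axis, mutant minus control) of every tested gene of each list; filled red points passed the edgeR test and the black line is the median. Filled points appear in the oligodendrocyte row alone, where the median is -0.47, while the layer genes lie between -0.07 and 0.19.

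The genes whose levels over the 6 libraries most resembled the mean standardised profile of the layer genes were 9530059O14Rik, Naa80 and Gm26684. Their Pearson correlations with that profile were 0.987, 0.986 and 0.981, as the highest of all other tested genes over 6 libraries that share preparation and depth, and they are given as a description with no test. Their log2 fold changes were 0.04, -0.01 and -0.02.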

How the data were processed

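PolyA RNA of 6 whole brains was measured, 1 library per brain, with groups taken from the labels. The deposited values are raw counts of reads per Ensembl gene. To make them, the authors trimmed single reads of 50 bases (Trim Galore 0.5.0), removed abundant sequences (Bowtie2 2.3.4.1), aligned the rest to GRCm38 with STAR and counted with featureCounts (Subread 1.6.2). The strand setting is not given in the sources used here. Symbols and coordinates came from GENCODE M21 of GRCm38, which matched 54495 of 54532 identifiers, and 2 older symbols were matched through RefSeq synonyms.

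Genes were filtered with filterByExpr and libraries scaled by TMM. Genotype was then tested in edgeR 4.0.16 under R 4.3.3, by quasi-likelihood and with no other term, over all 6 libraries, with Benjamini-Hochberg adjustment over 16731 genes and a threshold of 0.05. Standard errors and intervals were derived from the F statistic. CPM used the effective library size. Log2 CPM for the library comparisons used a prior count of 2. No fold limit was set. The study used 2-fold with DESeq2 and gave its counts for protein-coding genes. The same limit on the edgeR fit here, over all tested genes, left 60 genes (0.359%). The fit was tested on simulated data. P-values set each difference against the variation between the 3 brains of a group, estimated with information shared over genes.

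The layer genes and the other lists were chosen with earlier results of these data known. Genes named were the 9 members, Mphosph8, list genes past the test, the highest and lowest gene of each list and the 3 genes most like the members. Slc17a7, Emx1, Tshz2, Ddx3y, Xist, Pax7, Tfap2b, Tle1, Gm16599 and Jam3 were named outside this rule. Alternatives were RLE and upper quartile factors, DESeq2 1.42.0, limma-voom (limma 3.58.1), 2 other filters on low counts, each library left out, the replicate number as a block, protein-coding genes only and the 2-fold limit.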

Additional observations from a re-analysis of the deposited data

How the results depend on the processing

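The number of layer genes past the test was 0 in each direction under all 15 alternatives, and their adjusted p stayed at 0.666 or above. The signs of Cux1, Foxp2 and Tle4 were kept throughout. Those of the other 6 were kept under the alternatives on all 6 libraries, but turned in some fits without 1 library, which gave -0.117 to 0.006 for Cux2, 0.00 to 0.186 for Rorb, -0.145 to 0.033 for Bhlhe22, -0.043 to 0.101 for Bcl11b, -0.119 to 0.027 for Fezf2 and -0.154 to 0.014 for Tbr1. In those fits the median was -0.043 to 0.027 for the 9 genes, -0.008 to 0.047 for the upper layer genes and -0.092 to 0.027 for the deep layer genes. Over all genes, the 89 higher and 16 lower became 175 and 67 with no filter on low counts, 59 and 1 with the 2-fold limit by its construction, and 56 to 113 and 4 to 49 without 1 library. DESeq2 called 25 lower. The list genes lower were 3, against 6 with DESeq2, 5 with no filter and 0 to 5 without 1 library, and 2 with RLE or upper quartile factors or the 1 CPM filter. The causes were not tested. The deviations of control and mutant libraries with the same number correlated at 0.104, -0.0467 and 0.0804, which gives no ground for pairing by number, and not every library correlated best with its own number. The study describes the brains as from littermates, but the labels used here give no litter. Litter was therefore not a term in any fit. With the replicate block, 26 genes were lower and 98 higher, and 0 layer genes passed. Per kilobase of the longest coding transcript, chosen after seeing the data, control levels were 9.78 RPKM for Cux1, 11.3 for Cux2, 3.85 for Rorb, 4.03 for Fezf2, 6.81 for Tbr1, 2.89 for Foxp2 and 8.01 for Tle4. Depth limited Fezf2 most, at 110 to 149 counts a library.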
